A study of Mus musculus with 12 samples.

Results

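The 10 genes described here were Foxo1, Foxo3, Irs2, Pik3ip1, Sesn1, Trp53inp1, Ccng2, Txnip, Pdk4 and Pnpla2, a set of FoxO transcription factors, genes they are known to induce and genes switched on by fasting. They were picked out of 24445 gene symbols with the values of these libraries known, and several were chosen from how far they moved, so their levels and differences are a description and carry no test. All 10 passed the filter on low counts, which 14608 genes passed in all. RNA was sequenced from macrophages (Mφ) sorted by flow cytometry as CD14+/CD64+ cells from hearts of C57BL6/J mice, with 4 mice in each of 3 groups and 1 library per mouse. The study describes adult male mice and gives age ranges in weeks, without the age of each mouse in this experiment. Control (Ct) mice carried a saline pump. The study's methods give 14 or 28 days for vehicle pumps, without saying which Ct mouse had which. Mice with early concentric hypertrophy (ECH, called HCC in the labels) were infused for 14 days by pump with isoproterenol, which stimulates β-adrenergic receptors, at a dose of 30 mg/kg/day. Mice with heart failure (HF, called IC in the labels) were infused at that dose for 28 days. The labels name no transgene or deleted allele in any group.

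FoxO proteins are transcription factors that insulin and growth factors hold in check. Signalling through PI3K and AKT phosphorylates them and moves them out of the nucleus, and when it weakens, as in fasting, they return and turn on genes that slow growth, spare glucose and raise the use of fat. In Mφ, Foxo1 is also known for its part in inflammatory gene expression, and the same metabolic genes can be induced by other routes, such as glucocorticoids, PPAR factors and fatty acids.

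Values are CPM, the counts of a gene scaled to a common library total, after TMM scaling of library sizes. A difference between groups is a log2 fold change with its standard error (SE) from a single edgeR quasi-likelihood fit of the 3 group means to all genes and all 12 libraries (the 3-group fit), and a gene was called at a false discovery rate (FDR) under 0.05 with at least a 2-fold change. Library totals lay between 88466559 and 111180291 counts, and between 13600 and 15940 genes were detected. The study's methods describe enrichment with CD45 beads and a CD11b+ gate before the sort, steps that deplete lymphocytes, heart muscle cells and endothelial cells. Macrophage markers summed to 21916 to 32138 CPM in each library, so the sorted cell type was present throughout. The SEs measure the spread between these libraries.

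The library numbers in the labels run from 1 to 6 and then from 1 to 6 again, from which 2 library sets, A and B, were inferred. Set A holds the 4 Ct libraries and ECH libraries 1 and 2. Set B holds ECH libraries 3 and 4 and the 4 HF libraries. What the sets stand for is not stated. HF against Ct cannot be compared within a set, and only the ECH libraries give an estimate of the difference between sets. ECH libraries 3 and 4 also share a code, C23, in their names, as do Ct libraries 1 and 2 (C19), Ct libraries 3 and 4 (C24) and HF libraries 1 and 2 (C13). For several of the 10 genes these 2 libraries stood apart from ECH libraries 1 and 2, so values are given per library and each comparison with ECH is repeated without them and within a set.

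Promoter sequences of RefSeq (build GRCm38.p6) matched 9 of the 10 genes, in 10 windows of 250 bases before to 50 bases after a transcription start. Sesn1 had 2 windows and Trp53inp1 had none. Each window was searched on both strands for GTAAACA, the core of the FoxO site, for CACGTG, an E-box, and for TGACGTCA, the cyclic AMP response element. No window of these genes held more than 1 match, so the motifs did not overlap. GTAAACA was present in 2 of the 10 windows and in 3.65% of all 32851 promoters. The Txnip window held it 121 bases before the start. The 250 bases before the Txnip start are shown because they carry this match, which is in capitals (chr3:96557707-96557956, plus strand).
Txnip: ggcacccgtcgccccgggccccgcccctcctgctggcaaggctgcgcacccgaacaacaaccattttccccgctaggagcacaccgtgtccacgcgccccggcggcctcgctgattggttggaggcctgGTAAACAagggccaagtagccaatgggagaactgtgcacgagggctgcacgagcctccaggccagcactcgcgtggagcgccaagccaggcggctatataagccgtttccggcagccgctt

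The other match lay 22 bases after a Sesn1 start, on the minus strand, and is shown in 30 bases of the plus strand with the motif in capitals (chr10:41810584-41810613).
Sesn1: agaaccttctacTGTTTACcagccttttgg

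The E-box was found in the Irs2 window only, 44 bases before the start, against 7.15% of all promoters. The cyclic AMP response element was in none of the 10 windows, against 1.79% of all promoters. The 250 bases before the starts of Pik3ip1 (chr11:3330481-3330730, plus strand), Pdk4 (chr6:5496279-5496528, minus strand) and Pnpla2 (chr7:141454938-141455187, plus strand) are shown because these genes were far higher in ECH libraries 3 and 4 than elsewhere. These are RefSeq starts. By the gene positions given below, the Pik3ip1 bases lie inside the gene and the Pdk4 bases lie partly inside it. The printed bases hold none of the 3 motifs, which says only that these letters are not in the windows.
Pik3ip1: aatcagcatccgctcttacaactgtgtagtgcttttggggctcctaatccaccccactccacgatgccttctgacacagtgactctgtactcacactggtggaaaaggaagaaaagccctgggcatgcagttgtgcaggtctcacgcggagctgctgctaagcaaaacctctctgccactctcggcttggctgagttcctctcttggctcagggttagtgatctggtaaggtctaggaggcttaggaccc
Pdk4: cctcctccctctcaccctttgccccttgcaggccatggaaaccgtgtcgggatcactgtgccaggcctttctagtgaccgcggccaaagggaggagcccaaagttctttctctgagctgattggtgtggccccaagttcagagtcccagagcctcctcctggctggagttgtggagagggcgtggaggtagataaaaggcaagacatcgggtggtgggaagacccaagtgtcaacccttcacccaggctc
Pnpla2: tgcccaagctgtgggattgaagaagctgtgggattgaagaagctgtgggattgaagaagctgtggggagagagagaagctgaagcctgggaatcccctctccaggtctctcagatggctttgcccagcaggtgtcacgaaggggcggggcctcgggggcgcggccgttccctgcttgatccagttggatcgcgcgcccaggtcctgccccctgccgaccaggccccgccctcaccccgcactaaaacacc

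The 10 genes fell into 3 patterns. Pik3ip1, Trp53inp1, Pdk4, Pnpla2 and Txnip were higher in ECH libraries 3 and 4 than in each of the other 10 libraries, by at least 2-fold for the first 4. Foxo1 was lower in HF than in Ct, with no overlap between the groups, but was not called. The share of all genes without overlap between HF and Ct was not counted. Foxo3, Irs2, Sesn1 and Ccng2 overlapped between all groups. The 5 genes above are 5 of 10, beside 6.86% of all genes tested (1002 of 14608), and the 4 beyond 2-fold are 4 of 10, beside 0.274% (40 genes). Since the genes were picked with these values known, the shares describe the choice. None of the 10 was below all other libraries in ECH libraries 3 and 4, as 738 of all genes were.

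**Figure D1:**
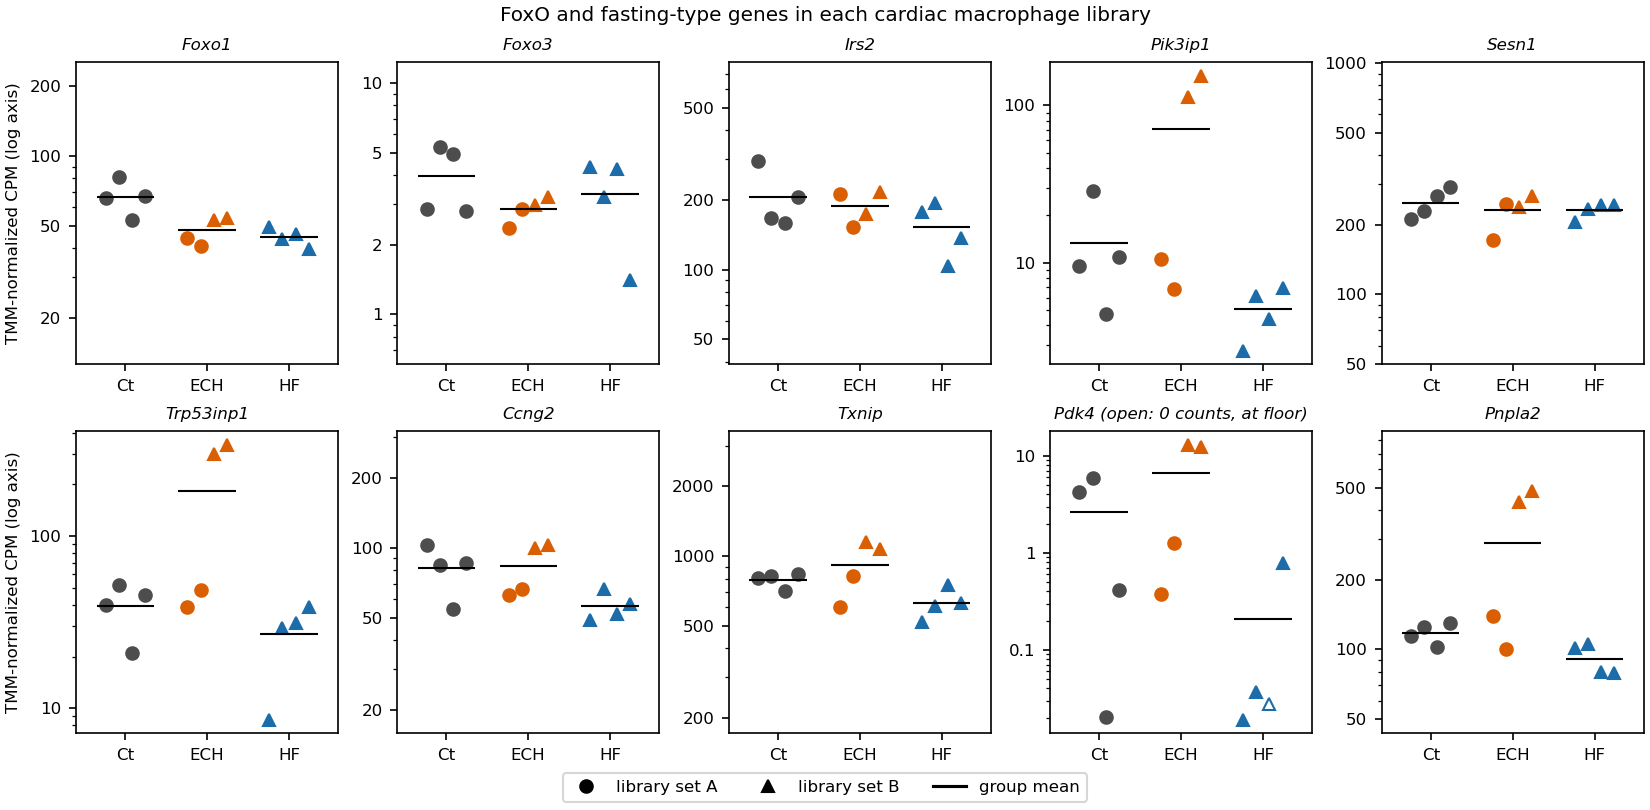
Each point is the TMM-normalized CPM of 1 library (log axis spanning at least 20-fold in each panel), with circles for library set A, triangles for set B, a line at the group mean and an open triangle for the HF library with 0 Pdk4 counts, drawn at the level of 3 counts. The triangles of ECH lie above all other points for Pik3ip1, Trp53inp1, Pdk4, Pnpla2 and Txnip, while Sesn1 and Irs2 overlap between groups.

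Per kilobase of exon, the levels in Ct spanned a wide range. Txnip was the highest, at 280.1 ± 20.4 CPM per kilobase (SD, n = 4), and Sesn1 (62.8 ± 9.12), Pnpla2 (44.8 ± 4.75), Irs2 (32.7 ± 9.8) and Ccng2 (26.3 ± 6.51) followed. Foxo1 (7.68 ± 1.32), Trp53inp1 (7.32 ± 2.47) and Pik3ip1 (4.53 ± 3.5) lay lower, and Pdk4 (0.762 ± 0.832) and Foxo3 (0.535 ± 0.179) were the lowest. Ct libraries overlapped between Pnpla2 and Irs2, between Irs2 and Ccng2, between Foxo1, Trp53inp1 and Pik3ip1, between Pik3ip1 and Pdk4, and between Pdk4 and Foxo3. Txnip stood above every other gene of the set in each Ct library. In ECH, Pnpla2 reached 109.8 ± 74.8 and Trp53inp1 33.8 ± 29.8 CPM per kilobase, where the SDs reflect the gap between the library pairs.

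The 2 transcription factors differed about as much in level as in pattern. Foxo1 (chromosome 3, 52268336 to 52353221, plus strand, GRCm38) is the main FoxO factor of insulin-responsive tissues. It held 65.7, 80.7, 52.7 and 67.3 CPM in the Ct libraries. The ECH libraries held 44.2, 41.0, 52.6 and 53.8 CPM, and the HF libraries 49.1, 43.8, 46.2 and 39.5 CPM. All 4 HF libraries lay below all 4 Ct libraries, and ECH overlapped Ct only through library 4, which passed Ct library 3. The mean was 66.6 ± 11.4 CPM in Ct and 44.6 ± 4.05 CPM in HF (SD, n = 4). This log2 fold change of -0.58 (SE 0.15, edgeR FDR 0.117) was short of both limits and was not called. ECH against Ct differed by -0.48 (SE 0.15), and by -0.65 (SE 0.19) without ECH libraries 3 and 4. ECH libraries 1 and 2 lay below all Ct libraries, while ECH libraries 3 and 4 lay near Ct library 3 and above all HF libraries. The mean of the pair from set B was 1.25 times that of the other ECH pair. The direction was negative in both comparisons with each library left out in turn, between -0.57 and -0.37 for ECH and between -0.67 and -0.47 for HF.

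Foxo3 (chromosome 10, 42181841 to 42276755, minus strand), a FoxO factor linked to stress resistance and cell survival, was sparse. Its levels were 2.84, 5.29, 4.91 and 2.80 CPM in Ct, then 2.36, 2.85, 2.96 and 3.22 CPM in ECH, and 4.35, 3.23, 4.24 and 1.41 CPM in HF. The 3 groups overlapped, and no difference exceeded its SE by much, with -0.48 (SE 0.43) for ECH against Ct and -0.26 (SE 0.43) for HF against Ct. Leaving out each library in turn gave -0.42 to -0.01 for HF against Ct, the latter without HF library 4. Counts per library ranged from 158 to 486.

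The highest Ct levels of both factors were in Ct library 2. It also held the most B cell marker RNA (446 CPM summed, against 96.6 to 231 in the other Ct libraries). It held the most T and NK cell marker RNA as well (96 CPM against 17.6 to 55.9). Its neutrophil (1583 CPM) and cardiomyocyte (267 CPM) sums were the highest of all 12 libraries too. Foxo3 was nearly as high in Ct library 3 (4.91 CPM), which held the least B cell and T and NK cell marker RNA in Ct. Foxo1 and Pik3ip1 are both well expressed in lymphocytes. In HF the B cell sum was 50.1 to 74.6 CPM and in ECH 34.3 to 79.8 CPM, below all Ct libraries as Foxo1 was in HF. The part of lymphocyte RNA in the Foxo1 difference was not tested. In RNA of sorted cells, fewer cells of a type and less RNA per cell cannot be told apart.

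Irs2 and Pik3ip1 act on the insulin and PI3K pathway upstream of FoxO. Irs2 (chromosome 8, 10984681 to 11008458, minus strand) encodes an adaptor that couples insulin and IL-4 receptors to PI3K, and FoxO factors are known to induce it. Ct libraries were at 294, 167, 159 and 205 CPM, ECH libraries at 211, 152, 173 and 216 CPM and HF libraries at 177, 193, 104 and 137 CPM. The groups overlapped, with a log2 fold change of -0.14 (SE 0.23) in ECH and -0.44 (SE 0.23) in HF against Ct. With each library left out in turn, the ECH value ran from -0.24 to 0.09, turning sign without Ct library 1. A non-coding gene on the opposite strand, 9530052E02Rik, overlaps Irs2 and reached at most 0.306 CPM. Antisense genes annotated over Foxo1 and Pik3ip1 were not analysed here, and without a stated strand setting their reads could be counted with those genes.

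Pik3ip1 (chromosome 11, 3330401 to 3342971, plus strand) encodes a membrane protein that binds the catalytic subunit of PI3K and lowers its activity. Its 4 Ct libraries held 9.48, 28.4, 4.73 and 10.9 CPM. ECH libraries 1 and 2 held 10.6 and 6.80 CPM, within the range of Ct, whereas ECH libraries 3 and 4 held 113 and 154 CPM. In HF it was at 2.75, 6.16, 4.39 and 6.88 CPM. The lower of the 2 high ECH libraries was 3.99 times the highest of the other 10, which was Ct library 2, and the mean of that ECH pair was 15.4 times that of ECH libraries 1 and 2. HF overlapped Ct only through Ct library 3. Pooled over all libraries, ECH exceeded Ct by 2.41 (SE 0.85) and HF lay below ECH by -3.82 (SE 0.91) on the log2 scale. Without ECH libraries 3 and 4 these became -0.63 (SE 0.63) and -0.78 (SE 0.60), so that the first turned sign. Within set B, HF against ECH was -4.73 (SE 0.35), where both groups come from the same inferred set. HF against Ct was -1.41 (SE 0.83), and -0.73 at the smallest when a library was left out.

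Sesn1, Trp53inp1 and Ccng2 restrain growth and are targets of FoxO, p53 or both. Sesn1 (chromosome 10, 41809935 to 41908424, plus strand), a stress-induced sestrin that lowers mTORC1 activity, had the smallest ratio of highest to lowest library of the set. Its CPM were 211, 228, 266 and 291 for Ct, then 172, 246, 239 and 267 for ECH, and 206, 233, 243 and 244 for HF. In the fit of group means to all libraries, the log2 fold changes against Ct were smaller than their SEs. They were -0.11 (SE 0.15) for ECH and -0.11 (SE 0.15) for HF. Other fits gave values larger than their SEs. ECH against Ct was -0.26 (SE 0.22) within set A. With library set as a covariate, HF against Ct was -0.38 (SE 0.25). The ECH value turned sign to 0.01 without ECH library 1. The FoxO core near one of the Sesn1 starts was shown above.

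Trp53inp1 (chromosome 4, 11156431 to 11174379, plus strand) encodes a protein that acts in p53-dependent stress responses and autophagy. It held 39.6, 52.2, 21.1 and 45.4 CPM in Ct and 38.6 and 48.9 CPM in ECH libraries 1 and 2. ECH libraries 3 and 4 held 302 and 340.1 CPM, while HF held 8.60, 29.2, 31.3 and 39.0 CPM. This was the widest gap of the set, with the lower of the 2 high libraries at 5.78 times the highest of the other 10. ECH libraries 1 and 2 lay inside the Ct range, as they did for Pik3ip1. The pooled log2 fold changes were 2.20 (SE 0.66) for ECH against Ct and -2.75 (SE 0.68) for HF against ECH. They were 0.14 (SE 0.48) and -0.69 (SE 0.47) without ECH libraries 3 and 4, and HF against ECH within set B was -3.57 (SE 0.48). Against Ct, HF overlapped and differed by -0.55 (SE 0.64), but by -3.42 (SE 0.68) with library set as a covariate.

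Ccng2 (chromosome 5, 93267257 to 93276231, plus strand) encodes an unconventional cyclin that slows the cell cycle and is a known FoxO target. The Ct libraries held 103, 84.0, 54.5 and 86.3 CPM, those of ECH 62.5, 66.7, 100.3 and 103 CPM, and those of HF 49.0, 66.5, 51.9 and 57.1 CPM. The ECH pairs parted here too, the pair from set B being 1.57 times the other, but these 2 libraries did not exceed the highest Ct library. Against Ct, ECH differed by 0.02 (SE 0.21) and HF by -0.55 (SE 0.21), with overlap. With library set as a covariate the HF value was -1.20 (SE 0.31). The ECH value was -0.13 without Ct library 3, -0.08 without ECH library 3 and -0.10 without ECH library 4. Leaving out both ECH libraries of set B made it -0.35 (SE 0.23). HF against ECH was -0.57 (SE 0.21), -0.19 (SE 0.22) without those libraries and -0.85 (SE 0.14) within set B.

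Txnip, Pdk4 and Pnpla2 set which fuel a cell burns. Txnip (chromosome 3, 96557957 to 96561883, plus strand) encodes an α-arrestin that binds thioredoxin and limits glucose uptake. Ct libraries were at 803, 819, 708 and 837 CPM. ECH libraries 1 and 2 were at 602 and 818 CPM, ECH libraries 3 and 4 at 1149 and 1078 CPM, and HF libraries at 518, 611, 749.7 and 630.2 CPM. ECH libraries 3 and 4 exceeded all others, though the lower of them was only 1.29 times the highest other library, Ct library 4. Log2 fold changes were 0.20 (SE 0.19) for ECH against Ct and -0.54 (SE 0.19) for HF against ECH, and -0.17 (SE 0.18) in both without ECH libraries 3 and 4. Within set B, HF against ECH was -0.83 (SE 0.14). Gm15441, an antisense gene over Txnip, was at 0.769 to 5.04 CPM, at most 0.615% of Txnip, and its reads cannot be told apart from those of Txnip without strand.

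Pdk4 (chromosome 6, 5483351 to 5496309, minus strand) encodes the kinase that shuts pyruvate dehydrogenase in fasting and spares glucose. It was low in most libraries, with 4.26, 5.92, 0.0202 and 0.416 CPM in Ct. ECH libraries 1 and 2 held 0.376 and 1.26 CPM and ECH libraries 3 and 4 held 13 and 12.3 CPM. In HF, libraries 1, 2 and 4 held 0.0191, 0.0369 and 0.777 CPM, and library 3 held no count, which allows up to 0.0279 CPM (3 counts, counting error only). Pdk4 thus ranged from no count in HF to 1450 counts in ECH, and it varied widely within Ct as well. Fitted differences had wide errors, 1.34 (SE 1.55) for ECH against Ct, -3.66 (SE 1.71) for HF against Ct and -5.00 (SE 1.82) for HF against ECH. They depend on the handling of counts near 0, and without HF library 4 HF against Ct became -7.06 and HF against ECH -8.40. Without ECH libraries 3 and 4, ECH against Ct became -1.70 (SE 2.15) and turned sign, and HF against ECH became -1.96 (SE 1.91). Within set B, HF against ECH was -5.91 (SE 1.65), and with library set as a covariate HF against Ct was -7.61 (SE 2.90).

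Pdk4 is abundant in heart muscle cells, so the cardiomyocyte markers belong beside it. Their summed level was 203 and 267 CPM in Ct libraries 1 and 2, 153 and 175 CPM in ECH libraries 3 and 4 and 69.7 to 123 CPM in the other 8, so the 4 libraries richest in these markers were the 4 with the most Pdk4. Pdk4 equalled 2.1% and 2.22% of the cardiomyocyte sum in Ct libraries 1 and 2, and 8.49% and 7.04% in ECH libraries 3 and 4. The ratio was thus not the same in both pairs, and it was at most 1.43% in the others. The part of muscle RNA in the Pdk4 levels was not tested further.

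Pnpla2 (chromosome 7, 141455198 to 141460743, plus strand) encodes adipose triglyceride lipase, the first enzyme in the breakdown of stored fat, and FoxO1 is known to induce it in fat cells. It was steady in Ct, at 114, 125, 102 and 129.9 CPM, and in ECH libraries 1 and 2, at 139 and 100 CPM. ECH libraries 3 and 4 held 431 and 482 CPM, and HF held 101, 105, 79.4 and 78.8 CPM. The lower of these 2 ECH libraries was 3.09 times the highest other one, while the remaining 10 libraries lay close together. ECH exceeded Ct by 1.29 (SE 0.40) and HF lay below ECH by -1.66 (SE 0.40). Without ECH libraries 3 and 4 the differences were 0.02 (SE 0.19) and -0.38 (SE 0.19), and within set B HF against ECH was -2.32 (SE 0.15). Adipocyte markers summed to at most 0.456 CPM in any library, and Adipoq, Cidec and Lep had no count in all 12.

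**Figure D2:**
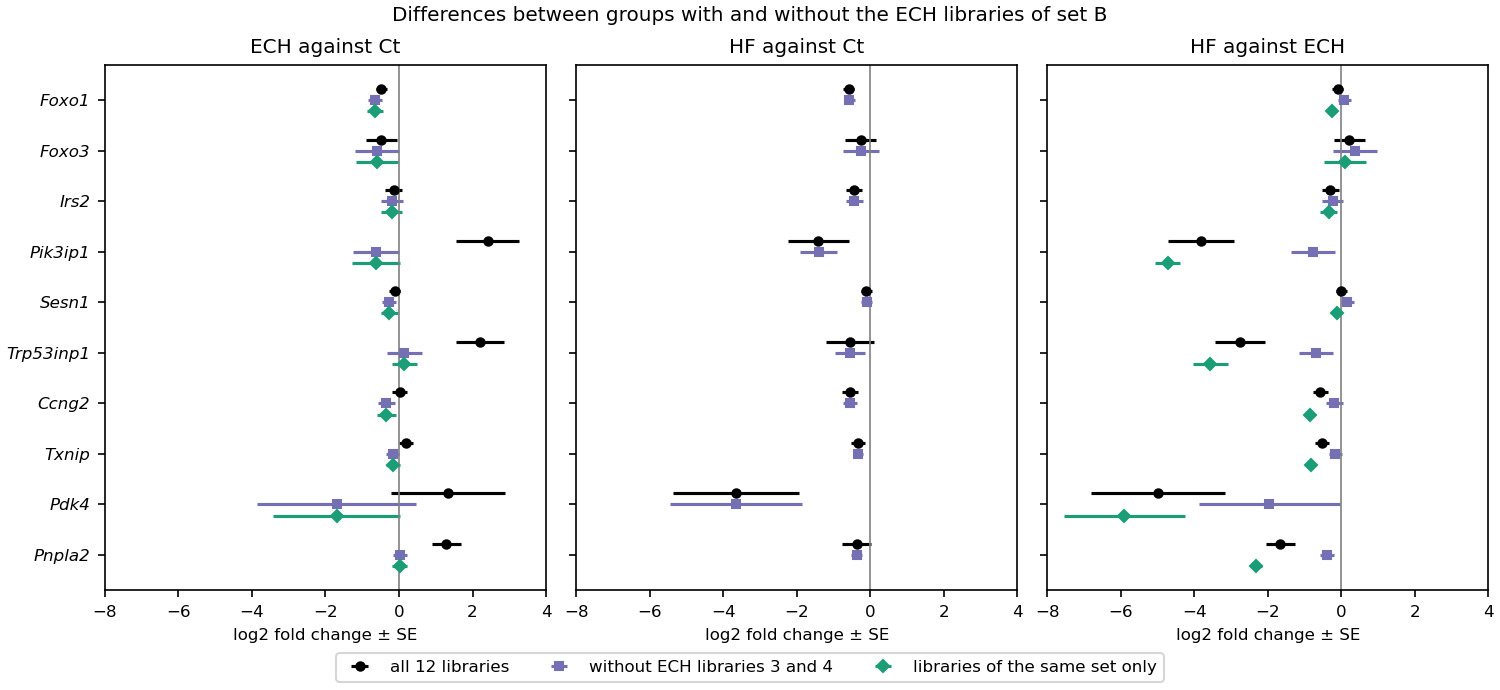
Points are log2 fold changes with SE bars for each gene in the 3 comparisons, from all 12 libraries (circles), without ECH libraries 3 and 4 (squares) and from libraries of the same inferred set (diamonds, not possible for HF against Ct). For Pik3ip1, Trp53inp1 and Pnpla2 the values against ECH are smaller without the 2 libraries (from -3.82 to -0.78 for Pik3ip1 in HF against ECH), and Foxo1 stays below 0 against Ct in each case.

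None of the 10 genes was called in any comparison by the 3-group edgeR fit, beside 0.356% of all genes for ECH against Ct (52 genes), 0.377% for HF against Ct (55 genes) and 0% for HF against ECH. At an unadjusted p under 0.05 there were 4, 2 and 6 of the 10, beside 11.9%, 16.1% and 7.98% of all genes. DESeq2 called Pnpla2 in ECH against Ct, none in HF against Ct, and Pik3ip1, Trp53inp1 and Pnpla2 in HF against ECH, and limma-voom called none in any. DESeq2 called 1.7%, 2.3% and 0.322% of all genes in these comparisons and limma-voom 0.575%, 0.89% and 0%. With library set as a covariate, edgeR called none of the 10 in ECH against Ct (0.151% of genes), and Pik3ip1, Trp53inp1 and Pnpla2 both in HF against Ct (1.42%) and in HF against ECH (1.86%). The HF against Ct values of that fit were -5.35 (SE 0.86), -3.42 (SE 0.68) and -2.30 (SE 0.26) for these genes, and they take the effect of the set from the ECH libraries alone. Not called, but also larger in that fit, were HF against Ct for Foxo1 (-0.90, SE 0.24), Txnip (-0.99, SE 0.24) and Sesn1 (-0.38, SE 0.25). In the 3-group fit HF against Ct was -0.37 (SE 0.39) for Pnpla2 and -0.34 (SE 0.19) for Txnip. Within set A, ECH against Ct called none of the 10, beside 0.00674% of genes (1 of 14838), with 2 ECH libraries. Within set B, HF against ECH called Pik3ip1, Trp53inp1 and Pnpla2, all lower in HF, beside 2.49% of genes (370 of 14864). The median log2 fold change of the 10 was 0.11 for ECH against Ct, -0.49 for HF against Ct and -0.55 for HF against ECH, beside 0.01, -0.01 and -0.02 over all genes tested. Without ECH libraries 3 and 4 the median for ECH against Ct turned sign to -0.31 and that for HF against ECH was -0.21. With all libraries, HF values were below Ct for all 10 genes, beside 51.2% of all genes, and the HF and ECH comparisons share the Ct libraries.

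Around these genes, 149 others of the same pathways were followed, in 8 lists of FoxO regulators, the insulin, PI3K and AKT pathway, other FoxO targets, pyruvate dehydrogenase and its kinases, lipolysis, PPAR and fat oxidation, thioredoxin and α-arrestins, and p53 and sestrins. Of these 141 were tested and none was called in any comparison by the 3-group edgeR fit, beside the background shares above. With library set as a covariate, edgeR called 0 of them in ECH against Ct, 4 in HF against Ct and 10 in HF against ECH. Unadjusted p values were under 0.05 for 30 in ECH against Ct, 32 in HF against Ct and 21 in HF against ECH (21.3%, 22.7% and 14.9%), beside the 11.9%, 16.1% and 7.98% of all genes. DESeq2 called 2, 3 and 2 of them and limma-voom 2, 1 and 0. The median log2 fold changes were 0.10, -0.07 and -0.17. For ECH against Ct the median was -0.00 without ECH libraries 3 and 4, and for HF against ECH it was -0.04.

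**Figure D3:**
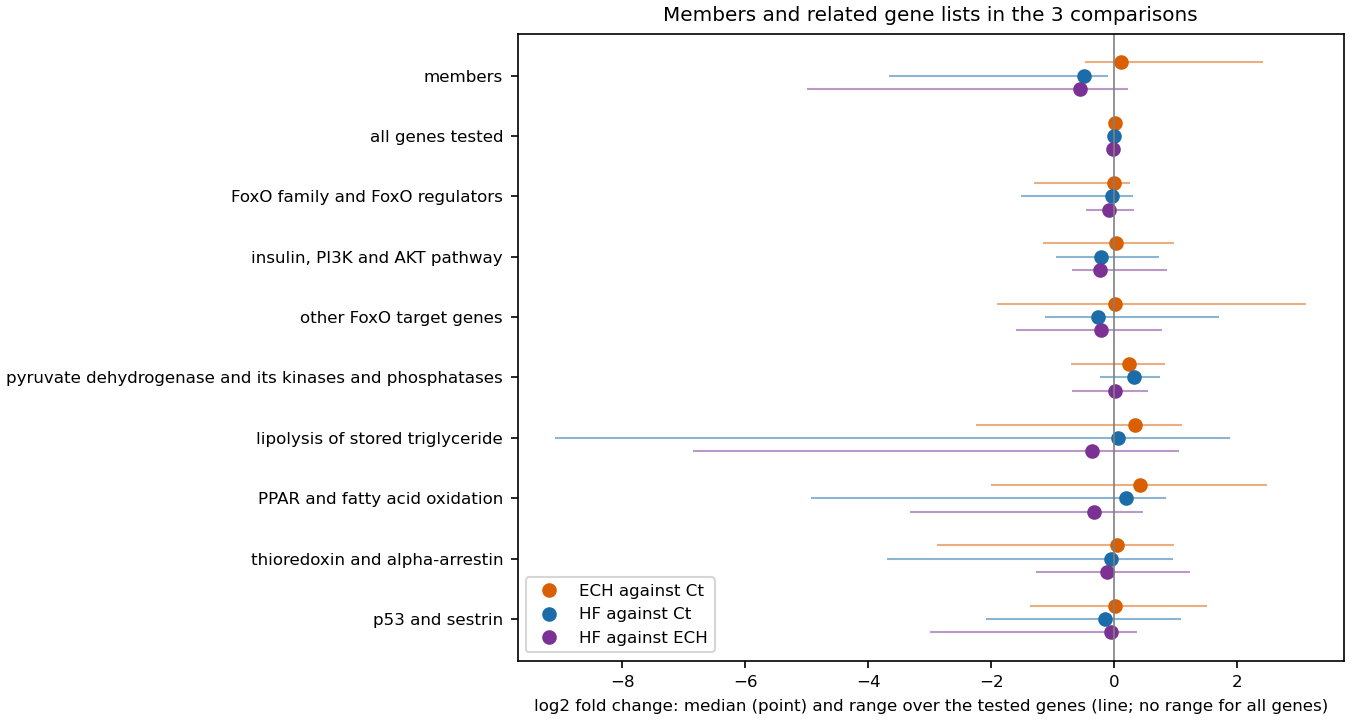
Points are the median log2 fold change over the tested genes of each list, and lines run from the lowest to the highest gene, with no line for all genes tested. The medians of the 8 related lists lie between -0.36 and 0.42, while those of the 10 genes are 0.11, -0.49 and -0.55. Without ECH libraries 3 and 4, 0.42 (PPAR and fat oxidation, ECH against Ct) became 0.01. In the same fit -0.36 (lipolysis, HF against ECH) became -0.01.

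Sgk1 and Arrdc4 passed the FDR but not the 2-fold limit in ECH against Ct. Sgk1, a kinase related to AKT that phosphorylates FoxO proteins and is also induced by glucocorticoids, averaged 141 ± 20.6 CPM in the Ct libraries, 276 ± 49 CPM in those of ECH and 233 ± 23.7 CPM in those of HF (SD, n = 4). Both isoproterenol groups lay above all Ct libraries. The log2 fold change of Sgk1 in ECH was 0.97 (SE 0.15, edgeR FDR 0.0202, range over alternatives 5.58e-07 to 0.602), and in HF 0.73 (SE 0.15, edgeR FDR 0.0562). Arrdc4, an α-arrestin related to Txnip, averaged 52.8 ± 12.1 CPM in Ct and 104 ± 19.8 CPM in ECH, a difference of 0.97 (SE 0.19, edgeR FDR 0.0401, range over alternatives 0.000231 to 0.824). All 4 ECH libraries of Arrdc4 were above all Ct libraries, with 79.8 and 95.2 CPM in set A and 123 and 117 CPM in set B. Both genes were short of the FDR in ECH against Ct without ECH libraries 3 and 4 (0.126 for Sgk1 and 0.472 for Arrdc4). In that comparison Sgk1 was called by limma-voom, and by edgeR without Ct library 2 or 3 or ECH library 1 or 4. Arrdc4 was called by edgeR without Ct library 3 or ECH library 1 or 2.

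Of 16 tested FoxO family members and regulators, the smallest p values belonged to the coactivators Crebbp (-0.70, SE 0.19, edgeR FDR 0.126 in HF against Ct) and Ep300 (-0.51, SE 0.17, edgeR FDR 0.18). In the PI3K list Inpp5d, the phosphatase SHIP1, was at 0.59 (SE 0.16, edgeR FDR 0.14) for ECH against Ct. Among other FoxO targets, Il7r, the IL-7 receptor chain, was at 1.70 (SE 0.39, edgeR FDR 0.0796) in HF against Ct, opposite in sign to the 10 genes and called by DESeq2 and limma-voom (range of FDR over alternatives 0.00128 to 0.217), and Mxi1, a MYC antagonist, at 0.58 (SE 0.15, edgeR FDR 0.129) in ECH. None of these was called by the 3-group edgeR fit. With library set as a covariate Ep300 was called in HF against Ct, and without Ct library 2 Il7r was called against Ct in both ECH and HF. Without ECH libraries 3 and 4, Mxi1 in ECH was at 0.28 and Inpp5d at 0.32.

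In the fuel lists, within the pyruvate dehydrogenase group, the kinases Pdk3 (0.60, SE 0.16, edgeR FDR 0.132) and Pdk1 (0.82, SE 0.25, edgeR FDR 0.207) had the smallest p values in ECH against Ct. Of the lipid droplet coats, Plin3 was at 0.44 (SE 0.11, edgeR FDR 0.113) in HF and Plin2 at 1.10 (SE 0.31, edgeR FDR 0.157) in ECH. Hadha, a β-oxidation enzyme, was at 0.45 (SE 0.12, edgeR FDR 0.123) in HF, and Ucp2, a mitochondrial carrier, at 1.04 (SE 0.29, edgeR FDR 0.159) in ECH. The p53 targets Btg2 (-0.88, SE 0.23, edgeR FDR 0.11 in HF) and Ddit4 (1.51, SE 0.88, edgeR FDR 0.538 in ECH), an mTORC1 inhibitor, closed the list. None of these was called by the 3-group edgeR fit. Plin2, Ucp2 and Ddit4 were called in HF against ECH with library set as a covariate and within set B, and DESeq2 called Plin2 and Ucp2 in ECH against Ct and Ddit4 in HF against ECH. Without ECH libraries 3 and 4, ECH against Ct was 0.37 for Plin2 and 0.24 for Ucp2 and turned sign to -0.28 for Ddit4. Btg2 is also an immediate early gene, and the 13 dissociation and immediate early genes were all below Ct in both groups, with medians of -0.68 in ECH and -0.74 in HF and Ier2 and Junb at -0.90 (SE 0.24) and -0.77 (SE 0.21) in HF, none called by the 3-group edgeR fit and 1 of the 13 by DESeq2 in each group against Ct. The ECH median of these 13 was -0.37 without ECH libraries 3 and 4, and those at an unadjusted p under 0.05 went from 8 to 2. Over all genes tested, that count went from 1741 to 979 in the same fits. Of all genes, 51.1% were above Ct in ECH and 51.2% were below Ct in HF.

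ECH libraries 3 and 4 stood above all other libraries for 32 of the 141 related genes (22.7%), beside 6.86% of all genes, and below all others for 4. The largest number came from PPAR and fat oxidation, with 9 of 19, among them Cpt1a, Slc25a20, Acadl, Acadvl and Ucp3. Fbxo32, Trim63, Bnip3 and Ulk1, linked to muscle atrophy or autophagy, were among 8 of 34 other FoxO targets. Only 1 of 16 FoxO regulators and 3 of 26 PI3K pathway genes did so. At least 2-fold above all others were Ucp2, at 3856 and 3556 CPM against at most 1670 CPM, and Angptl4, a PPAR target that inhibits lipoprotein lipase, at 14.8 and 21.3 CPM against at most 4.88 CPM. Among 12 genes induced by glucocorticoids, 5 stood above all others, and Fkbp5, an FK506-binding protein, did so by at least 2-fold with 692 and 603 CPM against at most 205 CPM.

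Within set B, 10 related genes were called in HF against ECH, all lower in HF, beside the 2.49% of genes given above. Ucp2 differed by -1.35 (SE 0.13, edgeR FDR 0.00393), Arrdc2, an α-arrestin, by -1.78 (SE 0.18, edgeR FDR 0.00393) and Plin2 by -1.31 (SE 0.15, edgeR FDR 0.00658). Fbxo32, a ubiquitin ligase subunit that FoxO factors induce in muscle atrophy, went from 48.9 and 43.5 CPM in the 2 ECH libraries to between 12.3 and 16.4 CPM in HF (-1.65, SE 0.17, edgeR FDR 0.0046). Ddit4 went from 32.2 and 23.1 CPM to between 1.11 and 3.90 CPM (-3.76, SE 0.50, edgeR FDR 0.00929). Arrdc3, Ulk1, Bnip3, Pdk2 and 8430408G22Rik made up the rest, with FDRs up to 0.0337. These tests set 2 ECH libraries against 4 HF libraries, and pooled over all libraries the FDR of each was between 0.491 and 0.697. In the same fit 6 of 12 glucocorticoid-induced genes were called, all lower in HF, namely Zbtb16, Tsc22d3, Ddit4, Per1, Fkbp5 and Klf9. Of these, Ddit4 is also among the 10 related genes called within set B. Over all alternatives, the HF against ECH FDRs of these 10 related genes ran from 0.00238 to 1.

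**Figure D4:**
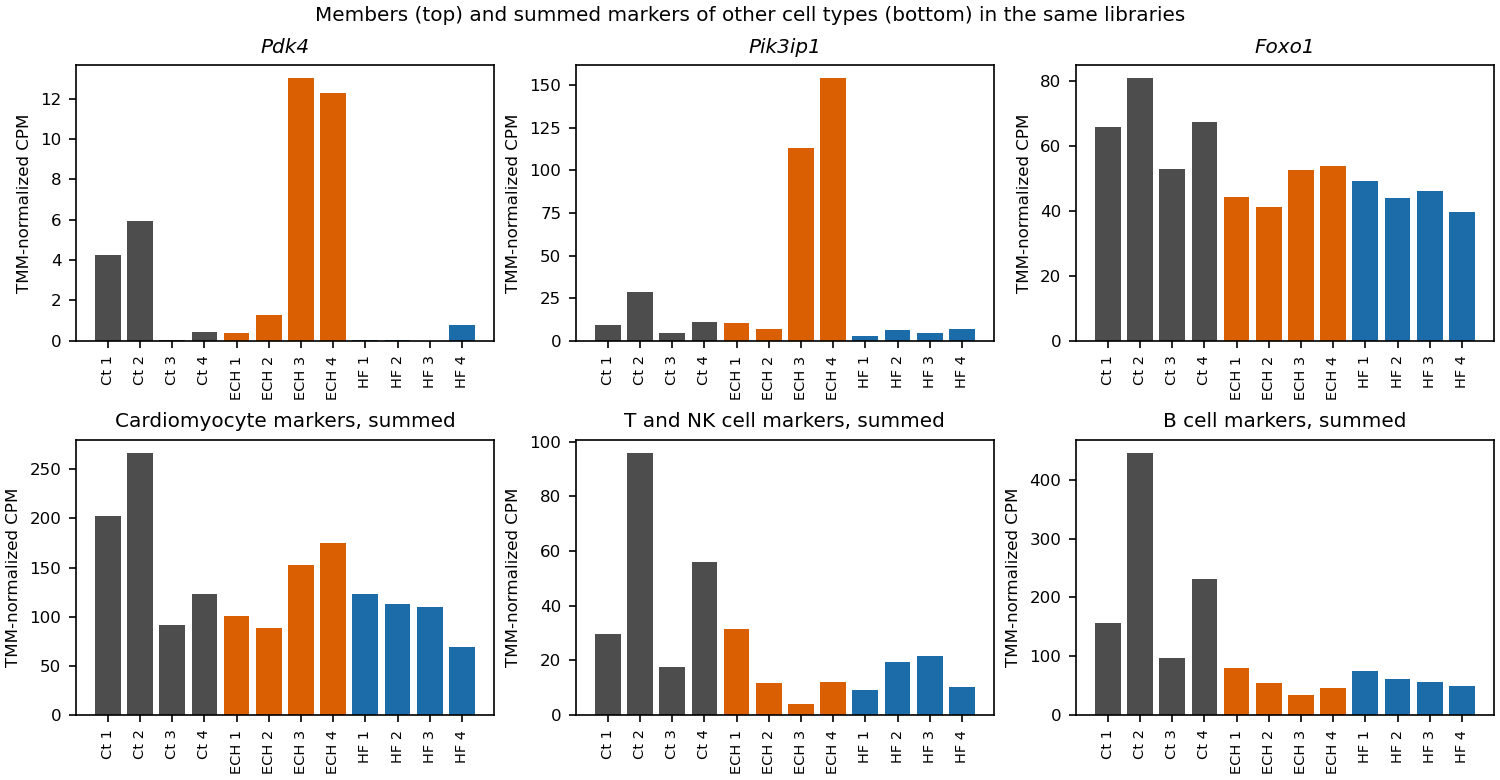
Bars are the TMM-normalized CPM of Pdk4, Pik3ip1 and Foxo1 (top) and of the summed markers of cardiomyocytes, T and NK cells, and B cells (bottom) in each of the 12 libraries, coloured by group. Pik3ip1 is high in ECH libraries 3 and 4, at 113 and 154 CPM, where T and NK cell markers are at 3.98 and 12 CPM and B cell markers at 34.3 and 46.2 CPM, the lowest B cell values of all.

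Markers of other cells in ECH libraries 3 and 4 did not move as one. B cell markers were at 34.3 and 46.2 CPM, below the 50.1 to 446 CPM of the other 10, and T and NK cell markers were at 3.98 and 12 CPM against 9.32 to 96 CPM, while Pik3ip1 was at 113 and 154 CPM. The part of lymphocyte RNA in Pik3ip1 was not tested. The 10 endothelial markers summed to 114 and 80.1 CPM, above the 34.5 to 77.7 CPM of the others. Of these only Fabp4, a fatty acid binding protein that Mφ also express, was above all other libraries in both (78.5 and 53.6 CPM against 15.9 to 51.1 CPM). The other 9 summed to 36 and 26.5 CPM, against 13.1 to 32.5 CPM, and Pecam1, Tie1, Egfl7 and Vwf lay within the range of the other libraries. In ECH library 3, Kdr (10.9 CPM) and Cldn5 (1.42 CPM) exceeded the other 10 libraries (at most 8.17 and 1.04 CPM). In ECH library 4, Tek (4.84 CPM) and Emcn (1.42 CPM) did so (at most 2.97 and 1.29 CPM), while Cdh5 (0.259 CPM) lay below them (at least 0.322 CPM). Fibroblast markers were at 80.6 and 420.3 CPM against 28.6 to 242 CPM. Summed macrophage markers were at 22575 and 21916 CPM, against 22289 to 32138 CPM, and most of that sum is Lyz2. Single markers moved apart in ECH libraries 3 and 4, with Mertk at 496 and 414 CPM against at most 183 CPM elsewhere and Adgre1 at 755 and 579 CPM against at least 878 CPM.

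The genes whose pattern over the 12 libraries was most like the mean of the 10 (each scaled to its own mean and SD) were Aldh6a1, Abcd2, Engase, Ankrd16, Gm3893, Phka2, Miip, Lysmd1, Rmnd5a and Ubp1, out of 14598. Their Pearson correlations ran from 0.932 to 0.984, and from 0.86 to 0.98 over the 10 libraries without ECH libraries 3 and 4. The points share libraries, depth and the choice of genes, and the values are a description. Aldh6a1, an enzyme of valine breakdown, was nearest, with 54.8 and 62 CPM in ECH libraries 3 and 4, 30.9 to 50.4 CPM in Ct and 27 to 32.7 CPM in HF. Abcd2, a peroxisomal transporter of fatty acids, followed with 112 and 88.9 CPM, 42.8 to 68.4 CPM and 28.8 to 35.9 CPM in the same order. Both also lay at 31.4 to 36.5 CPM in ECH libraries 1 and 2, close to HF and mostly below Ct.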

How the data were processed

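RNA of sorted CD14+/CD64+ cardiac Mφ was measured in 12 libraries, grouped by the condition in their labels. Per the study's methods, the authors amplified cDNA with SMART-Seq v4, sequenced it from both ends, used Trimmomatic for trimming, TopHat2 for alignment to mm10 and featureCounts for counting per gene. The deposited values are whole-number counts of 24445 gene symbols that were not normalized. No software version, annotation or strand setting is given in the sources used here. Depth is given with the results. Limits for 0 counts (3 counts) cover counting error only, since the libraries carry no molecular identifiers.

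Counts were filtered with filterByExpr by group, scaled by TMM and fitted in 1 quasi-likelihood model with a mean per group (edgeR 4.0.16, R 4.3.3), with Benjamini-Hochberg adjustment over 14608 genes. Alternatives were RLE scaling, DESeq2 1.42.0, limma-voom (limma 3.58.1), other filters, no fold limit, only the groups compared, a replicate block, library set as a covariate, libraries of 1 set only and each library left out. Fits without ECH libraries 3 and 4, and without Ct library 2 and HF library 1, were added after seeing the data. The code was tested on simulated data.

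The members and gene lists were chosen with earlier results of these data known. Named were all members, the called or else the 2 genes of smallest p in each list, and the 10 genes of highest Pearson correlation of log2 CPM (0.1 CPM added) with the mean scaled member level. Related and glucocorticoid-induced genes called within set B or at least 2-fold apart in ECH libraries 3 and 4, examples of genes above all others there, and 2 Mφ markers were named after their values were seen. Positions and exon lengths come from GENCODE M21 (GRCm38). Figures were drawn with matplotlib 3.10.9.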

Additional observations from a re-analysis of the deposited data

Results flagged for a closer look

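Values of the 10 genes and of 20 others named above were checked for a library far from the other 3 of its group, in 90 groups, and 4 were found. Chance alone would give about 1 in 20 such groups. Pdk4 in HF library 4 was at 0.777 CPM, against 0 to 0.0369 CPM in the other HF libraries. Ep300 in Ct library 3 was at 69.3 CPM, against 88.7 to 91 CPM. Plin2 in Ct library 1 was at 556 CPM, against 285 to 317 CPM. Angptl4 in HF library 1 was at 0 CPM, against 0.987 to 1.64 CPM. The gap between the ECH pairs is not of this kind, since 2 libraries of 4 are high in it.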

How the results depend on the processing

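Of the 10 genes, none was called by the edgeR fit of the 3 group means to all 12 libraries. DESeq2 called 1 in ECH against Ct and 3 in HF against ECH. With library set as a covariate 3 were called in HF against Ct and 3 in HF against ECH, and within the same set 3 in HF against ECH. With the covariate the median log2 fold change in HF against Ct went from -0.49 to -1.09. Leaving out 1 library gave 0 to 1 called in ECH against Ct (Pnpla2, without ECH library 2). Of the related genes, none was called by that fit. In ECH against Ct 2 were called without the fold limit, 2 by DESeq2, 2 by limma-voom, 1 without ECH libraries 3 and 4, 1 without Ct library 2 and HF library 1, and 0 to 2 with 1 library left out (ECH library 1, 2 or 4 or Ct library 2 or 3). In HF against Ct there were 3 by DESeq2, 1 by limma-voom, 4 with the covariate, 1 without Ct library 2 and HF library 1, and 0 to 1 with 1 library left out (Ct library 2). In HF against ECH DESeq2 called 2, the covariate 10 and the same set 10. The cause of these changes was not tested. Of 680 alternative log2 fold changes of the 10 genes, 644 stayed within the spread between replicates and 36 moved. With the covariate, ECH against Ct turned sign for Pik3ip1 (-0.62), Pdk4 (-1.70), Txnip (-0.16) and Ccng2 (-0.34), none of them called. Same-numbered libraries of different groups did not vary together (correlations of -0.0758 to 0.0833 in 12 pairs), so the numbers do not pair them, and a replicate block called 0 of the 10 and 0 related genes, with 22, 18 and 0 of all genes. With the block Pdk4 was at 0.08 in ECH and -5.82 in HF against Ct. Over all genes, ECH against Ct called 52, but 248 by DESeq2, 84 by limma-voom, 22 with the covariate, 8 with only the groups compared and 1 within the set. HF against Ct called 55, but 336 by DESeq2, 130 by limma-voom and 208 with the covariate. With 1 library left out, ECH against Ct called from 11 (without Ct library 1) to 95 (without Ct library 3). In those 2 fits HF against Ct called 15 and 103. HF against ECH called 0, but 47 by DESeq2, 272 with the covariate and 370 within the set. Only 2 ECH libraries in each set bear on the difference between sets, and Pdk4 is limited by counts near 0 in several libraries.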
